A study of Mus musculus with 2 samples.

Results

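The genes described here encode subunits of respiratory complexes II to V and the electron carriers cytochrome c and cytochrome c1. They were chosen by symbol: Sdha to Sdhd, every symbol that begins with Uqcr, with Cox followed by 4 to 8, or with Atp5, and Cyc1 and Cycs, where the gene had at least 20 unique molecular identifiers (UMIs) over both sections. Of 41 symbols that matched, 40 passed this minimum, among 19465 genes in the table and 15236 genes with at least 20 UMIs. Cox7b2 lay just inside the minimum with 20 UMIs, and Cox8c just outside it with 12. The 40 members comprised 4 genes of complex II, 8 of complex III, 15 of cytochrome c and complex IV, and 13 of complex V. Symbols of subunits encoded by mitochondrial DNA do not match these patterns, so those subunits are not covered. Counts per complex below refer to these members and not to every subunit.

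Gene expression was measured with the Visium CytAssist assay on formalin-fixed, paraffin-embedded heart tissue, in which gene-specific probes are captured on barcoded spots and counted as UMIs. One section came from a control heart, genotype α-MHC-MerCreMer+/-, and 1 from a TOP2B transgenic heart, genotype α-MHC-MerCreMer+/- TOP2B LSL/-, and both mice had been given tamoxifen at 80 mg/kg. In these mice the α-myosin heavy chain promoter drives a tamoxifen-dependent Cre in cardiomyocytes, and in the transgenic mouse Cre removes a stop cassette ahead of a human TOP2B cDNA under the CAG promoter at Rosa26, so the control carries the Cre and the tamoxifen but not the transgene. Mice of this protocol were 6 weeks old at injection; the age and day of harvest of these particular mice are not given in the sources used here. Depth was 14376300 UMIs over 1256 control spots and 12953389 UMIs over 924 transgenic spots, with medians of 11336 and 14531 UMIs per spot. Mouse Top2b had 1531 UMIs in the control and 1318 in the transgenic section (log2 ratio -0.07, -0.17 to 0.04), and whether the mouse probes read the human cDNA is not given in the sources used here.

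Complex II, succinate dehydrogenase, passes electrons from succinate to ubiquinone, complex III passes them from ubiquinone to cytochrome c, and complex IV, cytochrome c oxidase, passes them to oxygen. Complex V, the ATP synthase, uses the proton gradient built by complexes I, III and IV to make ATP. The heart depends on this pathway for most of its ATP. Several complex IV subunits exist as a heart and muscle isoform and a ubiquitous (liver-type) isoform encoded by separate genes, and the heart forms replace the ubiquitous forms in cardiomyocytes as the heart matures.

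Levels are UMIs per 1000000 UMIs of the section (CPM), differences are log2 ratios of transgenic over control CPM, and ranges in parentheses are 95% intervals that cover counting error only. There was 1 section per genotype, so no test between genotypes was possible, no difference has a replicate check, and a difference between these sections cannot be told apart from a difference between these mice. Each section was also divided into 4 quadrants at the centre of its tissue to show the spread inside it. Quadrants and spots are parts of 1 section and not replicates. Because a spot holds cells of several types, fewer cardiomyocytes and less RNA per cardiomyocyte cannot be told apart. Heart muscle markers were abundant in both sections: 8 sarcomere genes used to rank spots by cardiomyocyte content (Tnnt2, Tnnc1, Tpm1, Ttn, Actn2, Mybpc3, Ldb3 and Myl3) took 4.84% of the control and 4.46% of the transgenic UMIs. These 8 genes did not move together: 6 were lower in the transgenic section, beside 39.4% of all genes with at least 1000 UMIs. In 4 of them (Myl3 at -1.07, Ldb3 at -1.01, Ttn at -0.60 and Actn2 at -0.42) the quadrants did not overlap and lay lower, beside 26.7%. Tpm1, the most abundant of the 8, counts among the 6 but was nearly unchanged at -0.002 (-0.011 to 0.007). Tnnt2, also abundant, had 0.17, and Mybpc3 had 0.13. The sum of the 8 genes thus serves here only as a rough yardstick of cardiomyocyte content.

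Genes of complexes II to V were lower in the transgenic section almost throughout. Together the 40 genes took 1090793 of the control UMIs, or 7.59%, and 524227 of the transgenic UMIs, or 4.05%, a 1.87-fold lower share (log2 ratio -0.91, -0.91 to -0.90). Per spot this was a mean of 868 UMIs in the control and 567 in the transgenic section. The transgenic level was lower for 37 of the 40 genes, beside 36.8% of all 15236 genes. The log2 ratio was -1 or lower for 11 of them, beside 5.61% of all genes, and 1 or higher for 0, beside 13.7%. The median log2 ratio of the members was -0.84, with quartiles of -1.02 and -0.55, whereas the median of all genes was 0.20. For 36 members the highest transgenic quadrant was under the lowest control quadrant, which held for 13.1% of all genes, and for 1 member, Cox6a1, every transgenic quadrant lay above.

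Most members were abundant. Of the 40 genes, 36 had at least 1000 UMIs, and 35 of the 36 had the lower level in the transgenic section, beside 39.4% of the 4393 genes of that abundance. A log2 ratio of -1 or lower was seen in 10 of the 36, beside 7.67%, and quadrants that did not overlap and lay lower in 35, beside 26.7%.

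**Figure D1:**
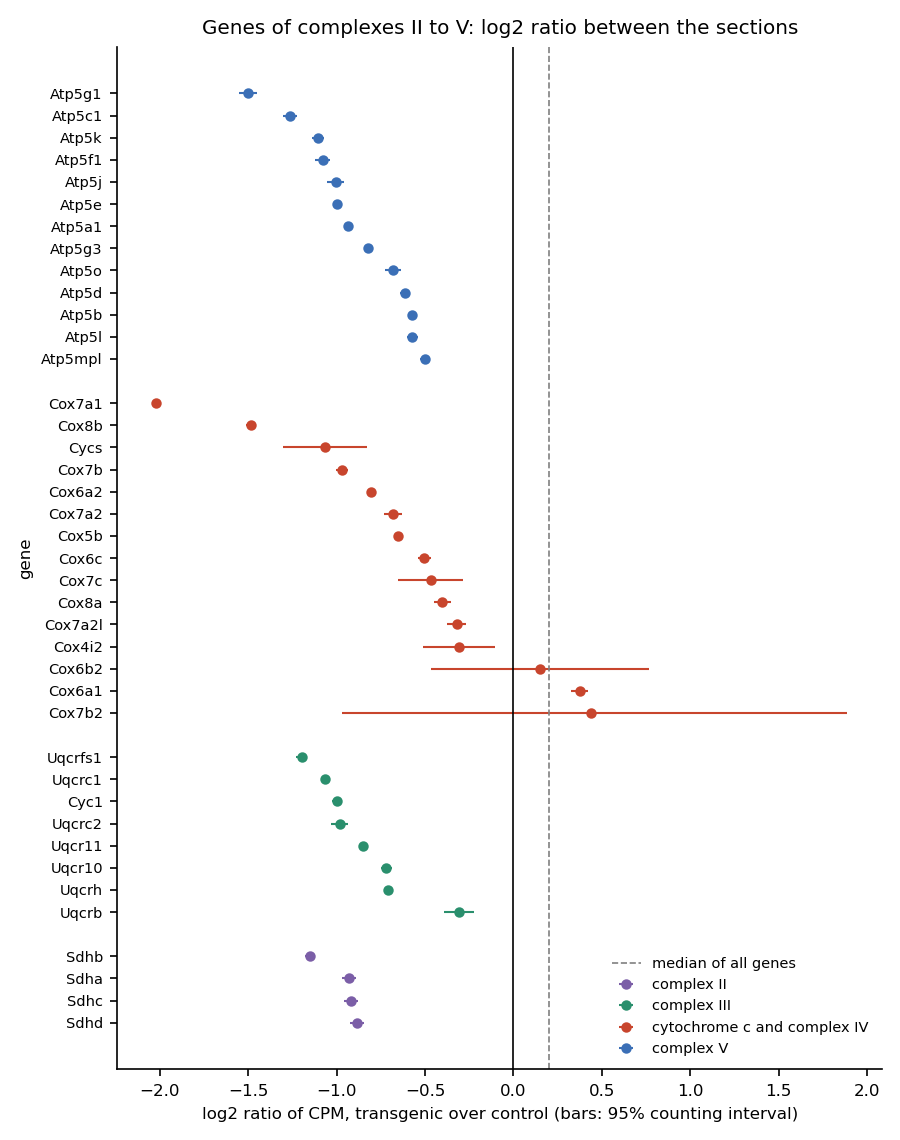
Log2 ratio of CPM in the transgenic over the control section (horizontal axis) for each of the 40 genes, grouped and coloured by complex, with bars for the 95% counting interval, a solid line at 0 and a dashed line at the median of all genes, 0.20. All but Cox6a1, Cox6b2 and Cox7b2 lie to the left of 0, and Cox7a1 lies farthest left at -2.02.

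Markers of other cells differed between the sections as well. The 5 erythroid genes (3 globin genes, Alas2 and Slc4a1) took 0.215% of control UMIs, with quadrants from 0.167% to 0.255%, and 2.04% of transgenic UMIs, with quadrants from 0.718% to 4.60%. The 6 fibroblast genes took 0.109% and 0.383%, and the 8 macrophage genes 0.0295% and 0.0570%. Among the macrophage genes Lyz2, with 28 and 22 UMIs, was lower at -0.20 (-1.07 to 0.66), and the others were higher. None of the 3 lists had a defining marker at 0. In 54 transgenic spots, of which 47 touched one another in 1 patch, erythroid genes made up 10% or more of the UMIs; the members took 1.43% of the UMIs there. Without these spots, and the 8 such spots of the control, the members took 7.59% and 4.11% of UMIs, 37 of 40 were still lower in the transgenic section, and their median log2 ratio was -0.82. Relative to the sarcomere genes in place of the total, the median was -0.72. The part of the erythroid, fibroblast and macrophage shares in the remaining difference was not tested.

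All 4 genes of complex II were lower in the transgenic section, and together they went from 5477 CPM to 2730 CPM, a 2.01-fold lower level. The control quadrants ranged from 5418 to 5542 CPM and the transgenic quadrants from 2041 to 3408 CPM. Sdhb, the iron-sulfur subunit that carries electrons away from the flavin, had 2166, 2295, 2272 and 2203 CPM in the control quadrants and 1204, 715, 1310 and 779 CPM in the transgenic quadrants. The highest transgenic quadrant was well below the lowest control quadrant, and the log2 ratio of the whole sections was -1.15 (-1.18 to -1.12). Sdha, the flavoprotein that oxidizes succinate, went from 1108 to 581 CPM (-0.93). Sdhc and Sdhd, which anchor the enzyme in the inner membrane, went from 1107 to 585 CPM (-0.92) and from 1027 to 556 CPM (-0.88).

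Complex III was lower for all 8 genes, with a median log2 ratio of -0.92 and summed levels of 16755 and 8891 CPM. The lowest ratio belonged to Uqcrfs1, the Rieske iron-sulfur protein, which went from 1883 CPM, with quadrants from 1843 to 1910, to 821 CPM, with quadrants from 594 to 1088 (-1.20, -1.23 to -1.17). The core proteins Uqcrc1 and Uqcrc2 had log2 ratios of -1.07 and -0.98. Cyc1, the cytochrome c1 that hands electrons to cytochrome c, went from 2890 to 1445 CPM (-0.9996, -1.02 to -0.97). The small supernumerary subunits had smaller differences. Uqcr11, Uqcr10 and Uqcrh, the hinge protein, had ratios of -0.85, -0.72 and -0.71. Uqcrb had the highest ratio of the complex at -0.31 (-0.39 to -0.22), from 179 to 145 CPM, and its quadrants did not overlap either, at 172 to 189 control CPM and 112 to 170 transgenic CPM.

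Cytochrome c and complex IV held both the lowest and the highest ratios of all members. Their summed level went from 26532 to 13788 CPM, 1.92-fold lower. The median of the 15 genes was -0.50, and it was -0.65 among those with at least 200 UMIs. Of the 15, 12 were lower, beside 36.8% of all genes. The heart isoforms Cox6a2 and Cox7a1 alone had 8650 and 5527 CPM of the control sum. Cycs, the somatic cytochrome c, had few UMIs, 487 and 210, and a log2 ratio of -1.06 (-1.30 to -0.83). Among the subunits outside the heart and ubiquitous pairs, Cox7b went from 1329 to 679 CPM (-0.97), Cox5b from 4973 to 3160 CPM (-0.65), Cox6c from 1158 to 817 CPM (-0.50) and Cox7c from 42.7 to 30.9 CPM (-0.47, -0.65 to -0.28). Cox7a2l, a relative of the Cox7a subunits that helps to join complexes III and IV into supercomplexes, went from 460 to 369 CPM (-0.32, -0.37 to -0.27).

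Isoforms best known from other tissues were scarce. Cox4i2, the lung and hypoxia isoform of subunit 4, had 477 and 347 UMIs, a ratio of -0.31 (-0.51 to -0.11), and quadrants that overlapped. Cox6b2, a testis isoform, had 47 UMIs in each section (0.15, -0.46 to 0.77), and Cox7b2 had 9 and 11 (0.44, -0.97 to 1.89). The intervals of both include 0, and their quadrants overlapped. Cox8c, below the minimum, had 7 and 5 UMIs. Cox4i1, Cox5a and Cox6b1 were not analysed here.

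All 13 genes of complex V were lower in the transgenic section, with a median of -0.94 and summed levels of 27111 and 15063 CPM. The lowest was Atp5g1, which encodes the c subunit, several copies of which form the rotating membrane ring. Atp5g1 had 944, 866, 899 and 792 CPM in the control quadrants and 383, 232, 391 and 224 CPM in the transgenic quadrants. The sections did not overlap, and the log2 ratio was -1.50 (-1.55 to -1.45). Atp5g3 encodes the same mature c subunit from another gene, and it went from 3162 to 1790 CPM (-0.82, -0.84 to -0.80). The share of Atp5g1 among UMIs of both genes was 21.7% (21.32% to 21.99%) in the control and 14.7% (14.3% to 15.1%) in the transgenic section, and the log2 ratio of Atp5g1 over Atp5g3 changed by -0.68 (-0.74 to -0.62). The quadrants of that share ran from 20.5% to 22.9% and from 14.2% to 15.8%. Atp5g2 was not analysed here.

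Subunits of the ATP synthase differed in size of change within its parts, and the ranges of the catalytic head and the stalks overlapped. In the head, the α subunit Atp5a1 had a log2 ratio of -0.94 and the β subunit Atp5b, which holds the catalytic sites, -0.57 (2347 to 1578 CPM). In the central stalk, the γ subunit Atp5c1 had -1.26 (-1.30 to -1.22), the ε subunit Atp5e -0.999 and the δ subunit Atp5d -0.61. Atp5f1, Atp5j and Atp5o of the peripheral stalk had -1.08, -1.01 and -0.68. The membrane subunits Atp5k and Atp5l had -1.10 and -0.57, and Atp5mpl had the highest ratio of the complex at -0.50 (-0.53 to -0.47). Atp5c1 and Atp5b, both present in the assembled enzyme, thus differed by more than their counting intervals.

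In each of the 3 pairs of heart and ubiquitous complex IV isoforms, the heart isoform had the lower log2 ratio of transgenic over control. In UMIs the heart isoform remained the larger part of its pair in both sections, and its share of the pair was lower in the transgenic section. Among the 6 genes, the ratios ran in the order Cox7a1, Cox8b, Cox6a2, Cox7a2, Cox8a and Cox6a1, from -2.02 to 0.37. Cox7a1, the heart form of subunit 7a, was the member with the lowest ratio of all 40. Its level was 5554, 5587, 5645 and 5323 CPM in the control quadrants and 1811, 828, 1887 and 895 CPM in the transgenic quadrants. The highest transgenic quadrant was far below the lowest control quadrant, and the whole sections had 5527 and 1363 CPM, a 4.06-fold difference (-2.02, -2.044 to -1.997). Its partner Cox7a2 had 572, 605, 640 and 656 CPM in the control quadrants and 457, 300, 464 and 319 CPM in the transgenic quadrants, a log2 ratio of -0.68 (-0.73 to -0.63). Cox7a1 made up 89.9% (89.7% to 90.1%) of the UMIs of this pair in the control and 77.9% (77.4% to 78.5%) in the transgenic section. The ratio of Cox7a1 over Cox7a2 went from 8.94 to 3.53, 2.53-fold lower, a change of -1.34 on the log2 scale (-1.39 to -1.28).

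Cox8b, the heart form of the smallest subunit, had 2644, 2717, 2667 and 2564 CPM in the control quadrants and 1209, 630, 1229 and 713 CPM in the transgenic quadrants. Again no quadrant overlapped, and the ratio of the whole sections was -1.48 (-1.51 to -1.45). Cox8a, its ubiquitous partner, was nearly even within each section, with 580 to 602 CPM in control quadrants and 425 to 469 CPM in transgenic ones (-0.40, -0.45 to -0.35). The share of Cox8b in the pair was 81.7% (81.3% to 82.0%) in the control and 67.8% (67.1% to 68.5%) in the transgenic section, and the log2 ratio of the pair changed by -1.08 (-1.14 to -1.02).

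Cox6a2, the heart form of the regulatory subunit 6a, had 8825, 8356, 8750 and 8690 CPM in the control quadrants and 5597, 3994, 5973 and 4137 CPM in the transgenic quadrants (-0.81, -0.82 to -0.79). Cox6a1, the ubiquitous form, had 463, 466, 457 and 450 CPM in the control quadrants and 619, 563, 621 and 578 CPM in the transgenic quadrants. Its sections therefore did not overlap in the opposite direction, and its log2 ratio was 0.37 (0.33 to 0.42). Cox6a1 was the only member with at least 1000 UMIs that was higher in the transgenic section, and it was also higher under each of the other scalings and spot selections tried, with log2 ratios from 0.22 to 0.49. The share of Cox6a2 in the pair was 94.96% (94.8% to 95.1%) and 89.2% (89.0% to 89.5%), and the log2 ratio of the pair changed by -1.18 (-1.23 to -1.13).

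Each pair's ratio was lower in every transgenic quadrant than in every control quadrant: 2.76 to 4.06 against 8.12 to 9.71 for Cox7a1 over Cox7a2, 1.48 to 2.68 against 4.27 to 4.60 for Cox8b over Cox8a, and 7.09 to 9.61 against 17.9 to 19.3 for Cox6a2 over Cox6a1. Probes differ in efficiency, so a share within a pair does not give the proportion of transcripts, and only its change between sections is read here. The summed level of each pair was also lower, from 6146 to 1749 CPM for the Cox7a pair, from 3242 to 1397 CPM for the Cox8 pair and from 9109 to 5540 CPM for the Cox6a pair. In the Cox6a pair the higher Cox6a1 level, 596 against 459 CPM, was small beside the lower Cox6a2 level, 4944 against 8650 CPM. Leaving out all 6 isoform genes, the other 34 members kept a median of -0.87 and a summed difference of 1.81-fold.

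**Figure D2:**
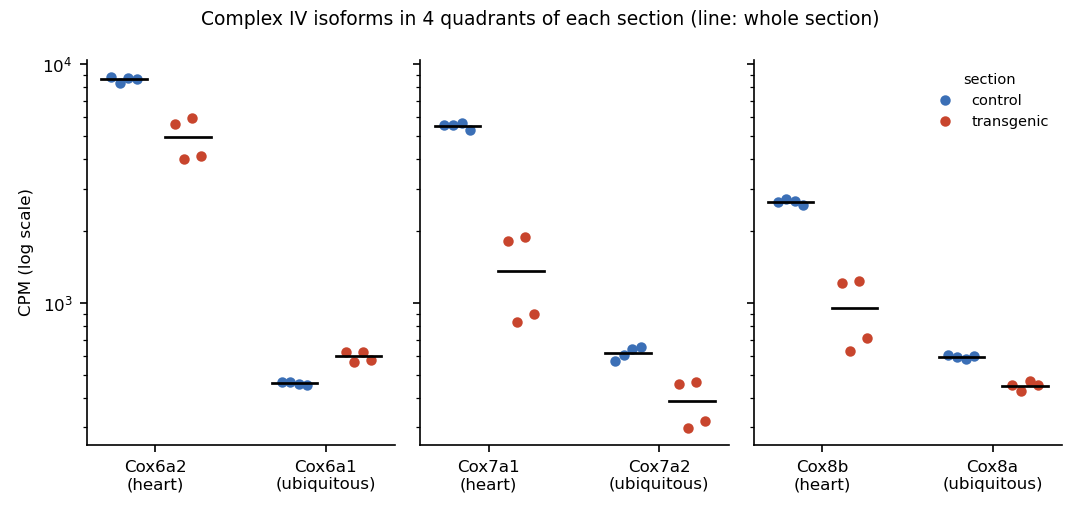
CPM on a log scale (vertical axis) of the heart and ubiquitous isoform of each pair in the 4 quadrants (points) and the whole (line) of the control and transgenic sections. Transgenic points lie below control points for all genes but Cox6a1, and they split into a higher and a lower pair of quadrants for Cox7a1, Cox8b, Cox6a2 and Cox7a2.

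Sequences just upstream of 5 of these isoform genes are shown as description, and their part in the differences within pairs was not tested. They are RefSeq windows on GRCm38.p6 from 250 bases before to 50 bases after the transcription start, 5′ to 3′ on the gene's strand. The windows lie at chr7:30183921-30184220 (+) for Cox7a1, chr9:79759804-79760103 (-) for Cox7a2, chr7:140900397-140900696 (-) for Cox8b, chr19:7217567-7217866 (-) for Cox8a and chr5:115348909-115349208 (-) for Cox6a1. Capitals mark matches, on either strand, to 6 short motifs: the ETS core CCGGAAG, the NRF1 part GCGCATGC, the GC box GGGCGG, the ERR site TCAAGGTCA, the CCAAT box CCAAT and the TATA box TATAAA.
Cox7a1: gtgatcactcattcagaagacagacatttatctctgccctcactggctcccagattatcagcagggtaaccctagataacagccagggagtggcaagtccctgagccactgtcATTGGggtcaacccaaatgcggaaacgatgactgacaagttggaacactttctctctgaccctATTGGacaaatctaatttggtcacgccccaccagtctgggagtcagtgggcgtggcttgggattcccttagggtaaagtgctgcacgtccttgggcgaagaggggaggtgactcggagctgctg
Cox7a2: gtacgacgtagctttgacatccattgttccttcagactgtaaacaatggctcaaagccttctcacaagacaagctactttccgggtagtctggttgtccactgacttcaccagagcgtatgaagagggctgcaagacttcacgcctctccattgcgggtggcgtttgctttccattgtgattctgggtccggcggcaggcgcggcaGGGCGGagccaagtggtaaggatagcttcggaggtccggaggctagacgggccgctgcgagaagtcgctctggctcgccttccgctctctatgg
Cox8b: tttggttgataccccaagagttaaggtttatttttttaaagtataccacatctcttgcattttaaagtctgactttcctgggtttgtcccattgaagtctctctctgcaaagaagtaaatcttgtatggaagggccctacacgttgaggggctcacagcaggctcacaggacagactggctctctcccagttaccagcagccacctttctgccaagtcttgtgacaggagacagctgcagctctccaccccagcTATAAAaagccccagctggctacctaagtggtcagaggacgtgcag
Cox8a: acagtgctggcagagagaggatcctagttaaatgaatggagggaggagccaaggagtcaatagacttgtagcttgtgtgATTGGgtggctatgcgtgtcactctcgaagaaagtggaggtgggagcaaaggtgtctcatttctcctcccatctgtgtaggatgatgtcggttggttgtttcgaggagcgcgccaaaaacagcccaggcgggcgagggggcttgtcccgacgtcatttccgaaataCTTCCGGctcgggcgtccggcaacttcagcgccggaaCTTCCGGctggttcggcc
Cox6a1: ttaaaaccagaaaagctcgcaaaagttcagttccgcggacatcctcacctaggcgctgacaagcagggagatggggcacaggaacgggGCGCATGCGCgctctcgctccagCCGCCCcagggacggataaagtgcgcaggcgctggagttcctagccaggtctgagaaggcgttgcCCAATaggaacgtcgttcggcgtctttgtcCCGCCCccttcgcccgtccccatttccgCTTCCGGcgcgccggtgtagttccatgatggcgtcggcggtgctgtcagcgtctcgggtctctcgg

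The ubiquitous Cox6a1 window held an ETS core, an NRF1 part, a pair of GC boxes and a CCAAT box. That of Cox8a held ETS cores and a CCAAT box in the reverse direction, but no NRF1 part. The windows of Cox7a1 and Cox8b held neither an ETS core nor an NRF1 part: Cox7a1 held CCAAT boxes in the reverse direction and Cox8b a TATAAA match that begins at base 5, counting the annotated start as base 1. The ubiquitous Cox7a2 window held 1 GC box and likewise neither an ETS core nor an NRF1 part. The matches of the NRF1 part on both strands of the Cox6a1 window overlapped each other, and different motifs did not overlap in these 5 windows. Of the 40 members, 30 had a window in the table, and Cox6a2 was not among them. The NRF1 part stood in 7 of the 30, or 23.3%, beside 2.71% of 32851 promoter windows and 5.63% of those of genes with at least 1000 UMIs. The ETS core stood in 30% beside 8.86% and 18.9%, the ERR site in 6.67% (Atp5g3 and Sdhd) beside 0.423% and 0.230%, and the CCAAT box in 56.7% beside 37.4% and 38.7%. The GC box stood in 36.7% beside 35.7% and 69.1%, and the TATA box in 10% beside 13.6% and 7.29%. A match is a description of letters in these windows and not evidence of binding.

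Within the tissue, the genes were even across the control section and patchy across the transgenic section. Over the 1249 control spots with at least 1000 UMIs, the share of a spot's UMIs taken by the members was 6.91% at the 10th percentile, 7.58% at the median and 8.22% at the 90th. Over 921 transgenic spots it was 2.51%, 3.74% and 6.05%. The coefficient of variation was 7.94% in the control, where counting alone would give 3.57%, and 36.1% in the transgenic section, where counting alone would give 4.64%. The 90th percentile of the transgenic spots was below the 10th percentile of the control spots. Each complex showed the same, with coefficients of variation of 16.7% and 40.6% for complex II, 11.7% and 38.8% for complex III, 12.7% and 37.4% for cytochrome c and complex IV, and 9.37% and 35.7% for complex V.

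The transgenic section had a richer and a poorer side. The 2 quadrants at low array columns had 4.66% and 4.94% of UMIs from the members, and the 2 at high columns had 3.17% and 3.36%, whereas the 4 control quadrants lay between 7.48% and 7.65%. In the same order, the sarcomere genes took 4.62%, 4.85%, 3.99% and 4.36%, the erythroid genes 0.718%, 1.10%, 4.60% and 1.49%, and the fibroblast genes 0.341%, 0.285%, 0.485% and 0.426%. The part of these in the difference between sides was not tested. The tissue edge made little difference, with 3.90% at transgenic edge spots and 4.11% inside, and 7.31% and 7.63% in the control.

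**Figure D3:**
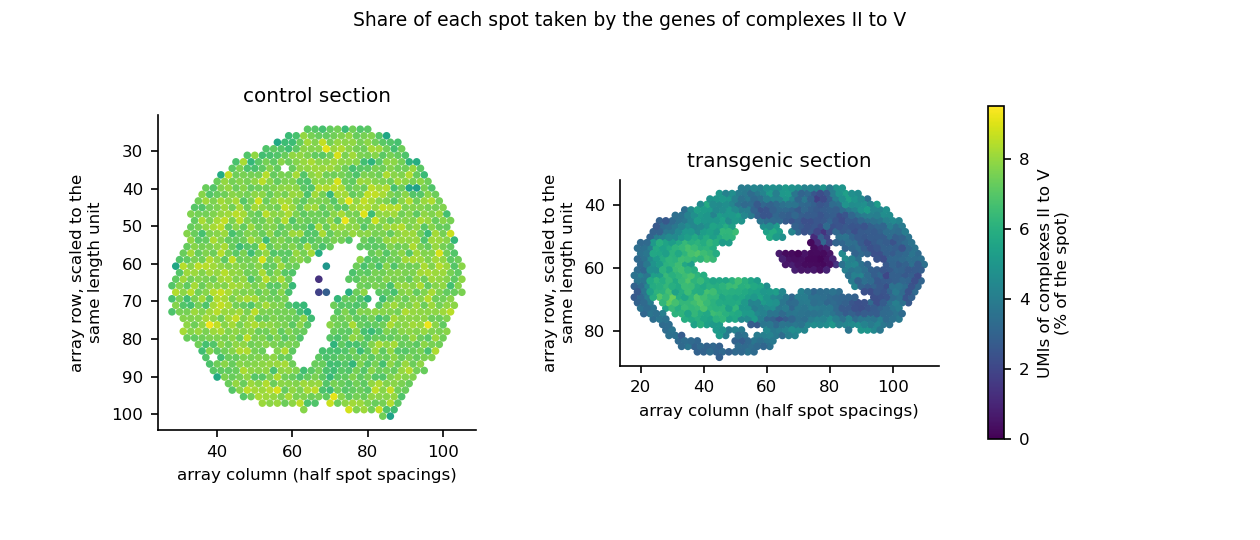
Share of each spot's UMIs from the 40 genes (colour, percent of the spot) at its place on the array (array columns and rows drawn to 1 length scale) in the control and transgenic sections, for spots with at least 1000 UMIs. Nearly all control spots are alike, whereas the transgenic section is higher on its left, lower on its right, and lowest in a patch of dark spots beside the central gap.

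The isoform shares followed this pattern. When transgenic spots were ordered by their share of sarcomere gene UMIs and divided into 3 equal groups of 307 spots, the members took 2.87%, 4.16% and 5.01% of UMIs from the lowest to the highest group. The ratio of Cox7a1 over Cox7a2 was 2.40, 3.68 and 3.99 in these groups, that of Cox8b over Cox8a was 1.24, 2.12 and 2.94, and that of Cox6a2 over Cox6a1 was 5.86, 8.47 and 10.3. Even the highest group was below the control section, where the groups of 416 or 417 spots gave 8.86 to 9.08, 4.24 to 4.61 and 18.3 to 19.3. The members' share did not rise over those control groups, at 7.58%, 7.65% and 7.54%, while the sarcomere share went from 4.40% to 5.32%. Cox6a1 itself was nearly level over the 3 transgenic groups, at 580, 600 and 605 CPM, as was Cox8a, at 457, 467 and 425 CPM. The ubiquitous Cox7a2 was not level, at 275, 388 and 485 CPM, and went in the same direction as Cox7a1, at 661, 1431 and 1937 CPM. The groups share the spots' totals with the measured genes, erythroid genes took 4.60%, 0.933% and 0.796% of UMIs in them, and fibroblast genes 0.506%, 0.405% and 0.250%. The part of both lists in these values was not tested.

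Spots were also ordered by the share of Myh7, the β-myosin heavy chain that is low in the healthy adult mouse heart, among UMIs of Myh6 and Myh7. Of the 921 transgenic spots with at least 1000 UMIs, the 885 with at least 20 UMIs of these genes together were used. In 3 groups of 295 transgenic spots from low to high Myh7 share, the members took 4.66%, 4.14% and 3.43% of UMIs, and Cox7a1 had 1759, 1410 and 938 CPM. Cox7a2 had 429, 410 and 326 CPM, and Cox6a1 had 605, 586 and 606 CPM. Spots with a larger β-myosin share thus had a smaller share of these genes, and less Cox7a1 and Cox7a2, while Cox6a1 differed little. In the same groups, sarcomere genes took 4.62%, 4.64% and 4.24% of UMIs, erythroid genes 0.778%, 1.12% and 1.61%, and fibroblast genes 0.342%, 0.376% and 0.445%, and their part in these values was not tested.

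Across the transgenic spots, single genes varied with the rest of the group to different degrees. As a description over 921 spots that share a library, Spearman's rho with the share of the other members was 0.89 for Cox7a1, 0.84 for Cox6a2, 0.84 for Cox8b, 0.57 for Cox7a2, 0.17 for Cox6a1 and 0.06 for Cox8a. In the 1249 control spots these values lay between -0.05 and 0.22. Fewer UMIs per spot lower such a value. Means per transgenic spot were 5.41 UMIs for Cox7a2, 6.30 for Cox8a and 8.35 for Cox6a1, against 13.3 to 69.3 for the heart isoforms. How far the number of UMIs lowered each value was not tested. After subtraction of the counting part, the coefficient of variation over spots went from 17.0% to 62.3% for Cox7a1, from 16.6% to 48.7% for Cox8b and from 28.2% to 41.7% for Cox6a2. It went from 11.8% to 36.3% for Cox7a2, from 12.3% to 14.0% for Cox8a and from 13.6% to 19.3% for Cox6a1.

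**Figure D4:**
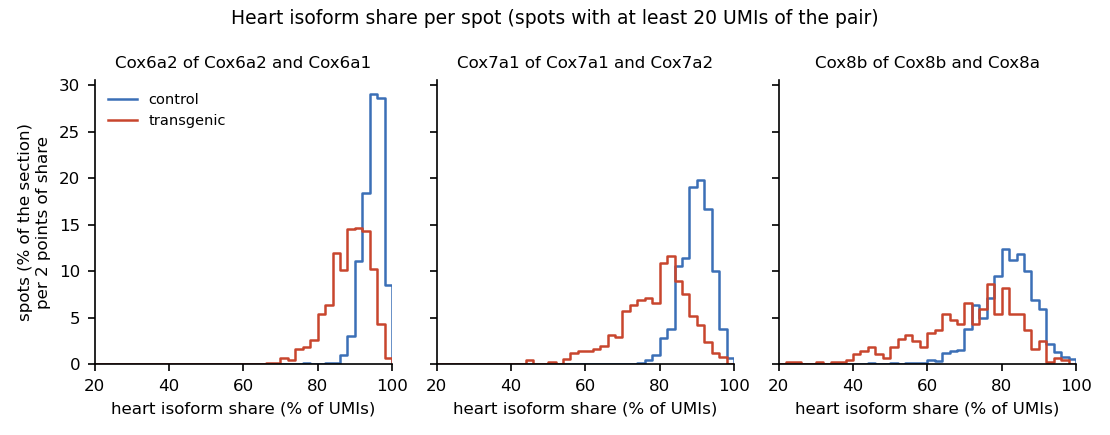
Distribution of the heart isoform's share of the pair's UMIs (horizontal axis, percent) over spots with at least 20 UMIs of the pair, for the control and transgenic sections. The vertical axis gives the percent of these spots, not of all spots of the section, per 2 points of share. The median spot moves from 95.1% to 89.1% for Cox6a2, from 90% to 80.4% for Cox7a1 and from 82.1% to 73.0% for Cox8b. The transgenic curves are wider, with standard deviations in the same order of 2.64 and 5.51, 4.07 and 8.94, and 7.16 and 13.2 points. Counting alone would give 2.26 and 3.72, 3.78 and 7.17, and 6.48 and 8.84 points, so it also widens the transgenic curves.

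The minimum of 20 UMIs in the plot of isoform shares kept 1241 control and 876 transgenic spots for the Cox6a pair, 1232 and 506 for the Cox7a pair, and 1175 and 442 for the Cox8 pair. Its transgenic medians lie above the shares of the summed UMIs for the Cox7a and Cox8 pairs, and the part of the left-out spots in this was not tested.

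Moran's I, a score that is near 0 when neighbouring spots are no more alike than distant ones and near 1 when they are very alike, was used as deposited for each section. The median over the 40 genes was 0.06 in the control and 0.49 in the transgenic section, beside 0.0013 and 0.014 for all genes and 0.0066 and 0.060 for genes with at least 1000 UMIs. In the control the values ran from Uqcrb at -0.0044 to Sdhb at 0.16. In the transgenic section they ran from Cox7b2 at -0.00075 to Cox7a1 at 0.69, and 19 genes were above 0.5, among them Cyc1 and Atp5g3 at 0.68, Atp5a1 at 0.67 and Cox5b at 0.65. Cox6a1 had 0.15 and Cox8a 0.20, and the scarce Cycs had 0.04. High values were not particular to the members. Among genes outside them, Ckmt2 had 0.70, Slc25a4 0.68, Myh6 0.67, Myh7 0.64, Slc25a5 0.48, Ndufa4l2 0.09 and Top2b 0.05 in the transgenic section. Counting noise in genes with few UMIs lowers this score, and how far it did so for each member was not tested.

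**Figure D5:**
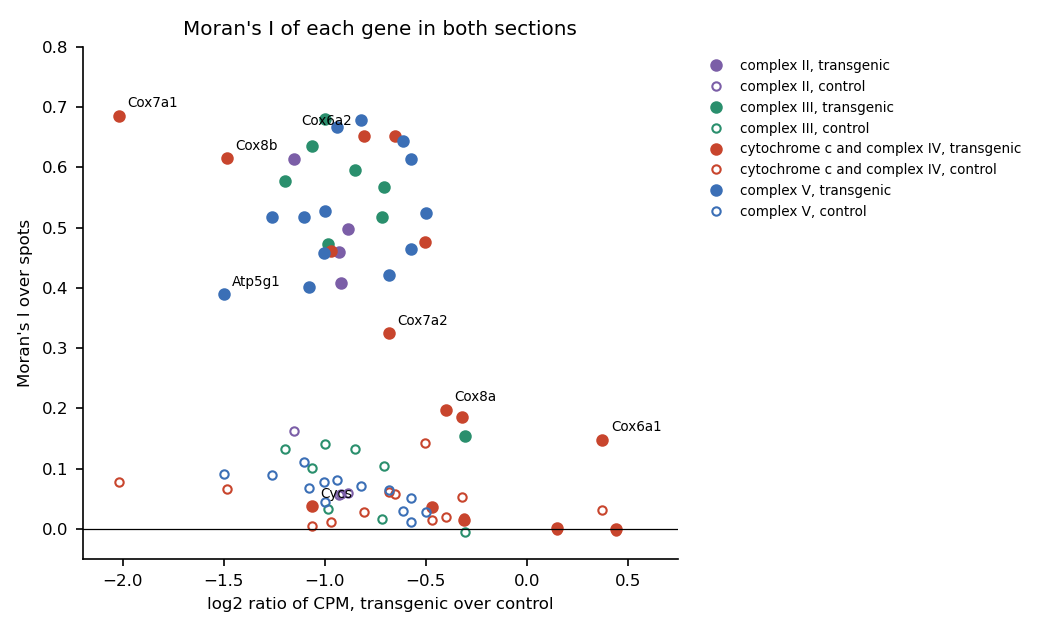
Moran's I over spots (vertical axis) against the log2 ratio of CPM in the transgenic over the control section (horizontal axis) for each of the 40 genes, with filled points for the transgenic and open points for the control section, coloured by complex. Control points stay at or below 0.16, and transgenic points reach 0.69 at Cox7a1.

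Genes that build these complexes without being part of them were also lower for the most part, by less. Of 36 assembly factors listed, 32 had at least 20 UMIs, 27 were lower in the transgenic section, beside 36.8% of all genes, and 26 had quadrants that did not overlap and lay lower, beside 13.1%, with a median of -0.56. The lowest was Uqcc1, a factor for complex III assembly, at -1.24 (-1.39 to -1.10), followed by Cox10, the enzyme that makes heme o for complex IV, at -1.21 (-1.40 to -1.03). Bcs1l, which inserts the Rieske protein Uqcrfs1, had -0.92, and the ATP synthase factors Atpaf2 and Atpaf1 had -0.99 and -0.61. Cox17, a copper chaperone for complex IV, went from 980 to 693 CPM (-0.50). The other 5 were higher. Cox19, another protein of complex IV copper supply, was the highest of the list, from 85.2 to 156 CPM (0.87, 0.77 to 0.98). Cox18 followed at 0.44 (0.21 to 0.66), and in both genes every transgenic quadrant lay above every control quadrant. Surf1 and Pet100, further complex IV assembly factors, had 0.02 (-0.12 to 0.17) and 0.21 (0.11 to 0.30), and Uqcc3 had 0.06 (-0.04 to 0.16). The quadrants of Surf1, Pet100 and Uqcc3 overlapped.

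Among partners of the chain, muscle and widely expressed forms also differed. Ckmt2, the sarcomeric mitochondrial creatine kinase, went from 3041 to 1291 CPM (-1.24, -1.26 to -1.21), and Slc25a4, the heart and muscle adenine nucleotide carrier, from 16736 to 9453 CPM (-0.82, -0.83 to -0.81). Slc25a5, the more widely expressed carrier, was higher, from 703 CPM, with quadrants from 667 to 732, to 872 CPM, with quadrants from 777 to 964 (0.31, 0.27 to 0.35). Ndufa4l2, a relative of the complex IV subunit Ndufa4, went from 72.6 to 113 CPM (0.64, 0.52 to 0.75). Of the 9 such genes listed, 5 were among the measured genes, each with at least 20 UMIs. Of these, 3 (Ckmt2, Slc25a4 and Cox7a2l, which is also a member) were lower, beside 36.8% of all genes, with a median of -0.32.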

How the data were processed

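Spatial expression was measured in 1 control and 1 TOP2B transgenic heart section. The deposited values are raw UMI counts per gene and spot that the authors made with bcl2fastq and Space Ranger (version 2.0.0 per the file headers), not normalized. The submitters' processing notes name GRCm39 and mm39, and the probe set is not given in the sources used here. Probe counts can be shared with near-identical pseudogenes, which several members have. For each gene the authors also deposited Moran's I, a score, which was used unchanged. The 725 spot barcodes found in both sections are array positions and not shared cells.

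The counts of each gene were added over the spots of a section and scaled to its total (CPM). Intervals at the 95% level were conditional binomial for the ratio of a gene between sections, exact Poisson for counts, normal on the log scale for ratios of a pair and Clopper-Pearson for its share, and they cover counting error only. Of these calculations, only the conditional binomial interval was tested on simulated counts. Those counts were drawn with counting error only, which is what the interval assumes. Symbols were matched to RefSeq promoter windows on GRCm38.p6. Named genes were the isoforms, the highest and lowest of each complex and list, the members at the extremes, Cyc1, Cycs, the Sdh genes and Top2b; other values of the listed genes were chosen after they were seen. The members and lists (assembly factors, import, porin and cristae genes, partner genes, complex I subunits and cell type markers) were chosen with earlier results of these data known. One gene of the erythroid list is not reported here and was left out of its sums. Alternatives were edgeR 4.0.16 TMM and DESeq2 1.42.0 size factors (R 4.3.3), other totals, spot selections, a pseudocount of 1 CPM and other UMI minimums. Python 3.11.15, numpy 2.4.6, scipy 1.17.1, pandas 2.3.3 and matplotlib 3.10.9 were used. Images of the sections, clusters and the deposited Moran p-values were left out as not needed.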

Additional observations from a re-analysis of the deposited data

How the results depend on the processing

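Directions held under every alternative run for the member median, the complexes and the isoform pairs: 37 or 38 of the members with at least 20 UMIs were lower in the transgenic section, and no result changed sign. The median log2 ratio of the members, -0.84, was -0.99 with TMM factors, -0.99 with DESeq2 size factors, -0.92 with totals without the 50 most abundant genes, -0.72 with the sarcomere genes as total, -0.57 in the 50% of spots richest in sarcomere genes, -0.87 in the 50% of spots poorest in erythroid genes, -0.82 in spots with under 10% erythroid UMIs, an alternative chosen after seeing the data, and -0.87 among members with at least 200 UMIs. These scalings move every log2 ratio by -0.16, -0.15, -0.09 and 0.12. Shares of all genes were counted only in the main setting, where 36.8% were lower and 5.61% had a log2 ratio of -1 or lower. The 11 members at -1 or lower became 20 with TMM or DESeq2 factors, 18 with totals without the abundant genes, 6 with the sarcomere genes as total and 3 in the spots richest in sarcomere genes. In those spots the pair changes were -0.91 for Cox6a2 over Cox6a1, -1.20 for Cox7a1 over Cox7a2 and -0.67 for Cox8b over Cox8a, and the last was -1.17 in the erythroid-poor spots. The cause of these moves was not tested. Cox6b2, with 47 UMIs a section, was lower with TMM factors, in the spots richest in sarcomere genes, in the erythroid-poor spots and away from the edge. Depth limits what can be said of Cox6b2, Cox7b2 and Cox8c. No paired analysis was possible because there was 1 section per genotype and the labels carry no replicate numbers.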

Other observations

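Import, porin and cristae genes of mitochondria were lower for the most part as well. Of 21 listed, 20 had at least 20 UMIs, 18 were lower in the transgenic section, beside 36.8% of all genes, and 12 had quadrants that did not overlap and lay lower, beside 13.1%, with a median log2 ratio of -0.51. The lowest was Hspd1, the mitochondrial chaperonin, from 600 to 213 CPM (-1.49, -1.56 to -1.43), and Timm23, the channel of the inner membrane import machinery, went from 658 to 287 CPM (-1.20, -1.25 to -1.14). Hspa9, the motor chaperone of import, had -0.76. The porins Vdac3 and Vdac2 had -0.76 and -0.11, and the outer membrane receptor Tomm20 had -0.04 (-0.13 to 0.05), with quadrants of Vdac2 and Tomm20 that overlapped. Chchd6 was the highest at 0.27 (0.01 to 0.54), with 235 and 256 UMIs.

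The 34 subunits of complex I, the entry of electrons from NADH, were all lower, beside 36.8% of all genes, from Ndufa8 at -1.41 to Ndufa7 at -0.15, and took 3.57% and 1.93% of UMIs. Members of the endothelial list, and of the smooth muscle and pericyte list, went both ways. The 6 endothelial genes summed to 0.150% and 0.152% of UMIs, most of them from Fabp4. Kdr was lower at -0.92, and Cldn5 and Pecam1 were higher at 1.26 and 0.46, each with quadrants that did not overlap. Kdr was the only one of the 6 below 0, beside 36.8% of all genes. The 5 smooth muscle and pericyte genes summed to 0.0634% and 0.0656%, from Myh11 at -0.61 to Tagln at 0.63. Of the skeletal muscle genes, 3 had at least 20 UMIs, and Tnnt3 carried most of their difference, from 18 to 384 UMIs, while Tnni2 went from 41 to 75 and Mylpf from 36 to 63.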
